A study of Mus musculus with 51 samples.

Results

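The 10 genes described here are Nfe2l2, which encodes the transcription factor NRF2, and 9 antioxidant genes usually counted among its targets or partners: Nqo1, Hmox1, Gclc, Gclm, Slc7a11, Txnrd1, Srxn1, Gpx1 and Sod2. They were chosen by name, with earlier results of these data known. All 10 are among the 23315 gene names of the VitC femur tables and the 25938 genes of the Tet femur table. The question was whether loss of vitamin C (VitC), itself an antioxidant, goes along with higher levels of other antioxidant genes.

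NRF2 is held at low levels by KEAP1, which marks it for degradation. Oxidants and electrophiles modify KEAP1, and NRF2 then accumulates, pairs with a small MAF protein and binds antioxidant response elements. BACH1 competes for the same elements and represses Hmox1 in particular. Because NRF2 is controlled mainly as a protein, the Nfe2l2 transcript need not follow its activity.

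Femoral RNA was sequenced from 20-week-old C57BL/6 mice after the marrow had been flushed out and the periosteum removed. WT mice make their own VitC. Gulo-/- mice cannot, and received 3.3 g/L VitC in the drinking water either for all 20 weeks (VitC+) or until week 15, followed by 5 weeks without it (VitC+/-). A second set came from 11-week-old mice on the same background. All of them, controls included, carried Cre driven by the Prrx1 enhancer, which acts in limb mesenchyme and its descendants and not in blood cells. They were wt/wt (Ctrl), Tet1 fl/fl (Tet1 cKO, exon 4 flanked by loxP), Tet2 fl/fl (Tet2 cKO, exon 3) or Tet1/2 fl/fl (Tet1/2 cKO). TET enzymes oxidise 5-methylcytosine to 5-hydroxymethylcytosine (5hmC) and use VitC as a cofactor. Each of the 7 groups had 3 libraries.

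Several libraries stood apart. Gulo was listed at 0 RPKM in the library labelled WT replicate 3 and at 0.18 in the library labelled VitC+ replicate 1, against 0.49 to 0.52 in the other WT libraries and 0.013 to 0.035 in the other Gulo-/- libraries. Every Gulo value was below 1 RPKM, the level used as the filter here, and so near the floor. Osteoclast markers, summed in RPKM divided by a factor per library, were at 867 in WT replicate 3 and 794 to 840 in the other WT libraries. They were at 1893 in VitC+ replicate 1 and 2190 to 2595 in the other VitC+ libraries. Whether the labels are right was not tested. WT replicate 1 had 0.218 times the depth of VitC+/- replicate 1, while the other 7 libraries had 0.893 to 1.36 times. The Tet libraries held 28597536 to 49788434 reads. Their summed skeletal muscle markers ran from 3887 to 1723080 normalized counts, beside 137667 to 581221 in Ctrl. Gene-level counts include exons that were not deleted and so do not check the deletions. Tet1 was at 532 to 773 in Tet1 cKO and 374 to 435 in Ctrl, and Tet2 at 1834 to 2245 in Tet2 cKO and 2236 to 2512 in Ctrl. All 10 osteoblast and osteocyte markers were above 0 in every femur library.

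After VitC withdrawal, 1 of the 9 NRF2 genes that could be tested passed the threshold against VitC+. It was Gclc, the catalytic subunit of the enzyme that limits glutathione synthesis, which rose 2.27-fold. None of the 9 fell. Of all 12586 genes tested, 5.93% were higher and 7.52% lower at the same threshold, an adjusted p of 0.05 (limma, Benjamini-Hochberg over all genes). The median log2 fold change was 0.36 over the 9 genes and 0.02 over all genes, and 8 of the 9 were above 0. Against WT, Hmox1, Gclc and Srxn1 rose and Gpx1 fell, where 15.3% of all genes were higher and 15.9% lower. The count against WT was 2 instead of 4 without VitC+/- replicate 1, WT replicate 2 or WT replicate 3. Gulo was near the floor in every library, and its level in WT replicate 3 and VitC+ replicate 1 went against their labels. The summed osteoclast markers of both libraries did not. Without both of these libraries the count was 1, Gclc (log2 fold change 0.95, adjusted p = 0.0499). Hmox1 was then at 1.41 (adjusted p = 0.123) and Srxn1 at 1.24 (adjusted p = 0.135). Both comparisons use the same VitC+/- libraries. VitC+/- and WT differ in Gulo genotype as well as in withdrawal, which cannot be told apart in that comparison.

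**Figure D1:**
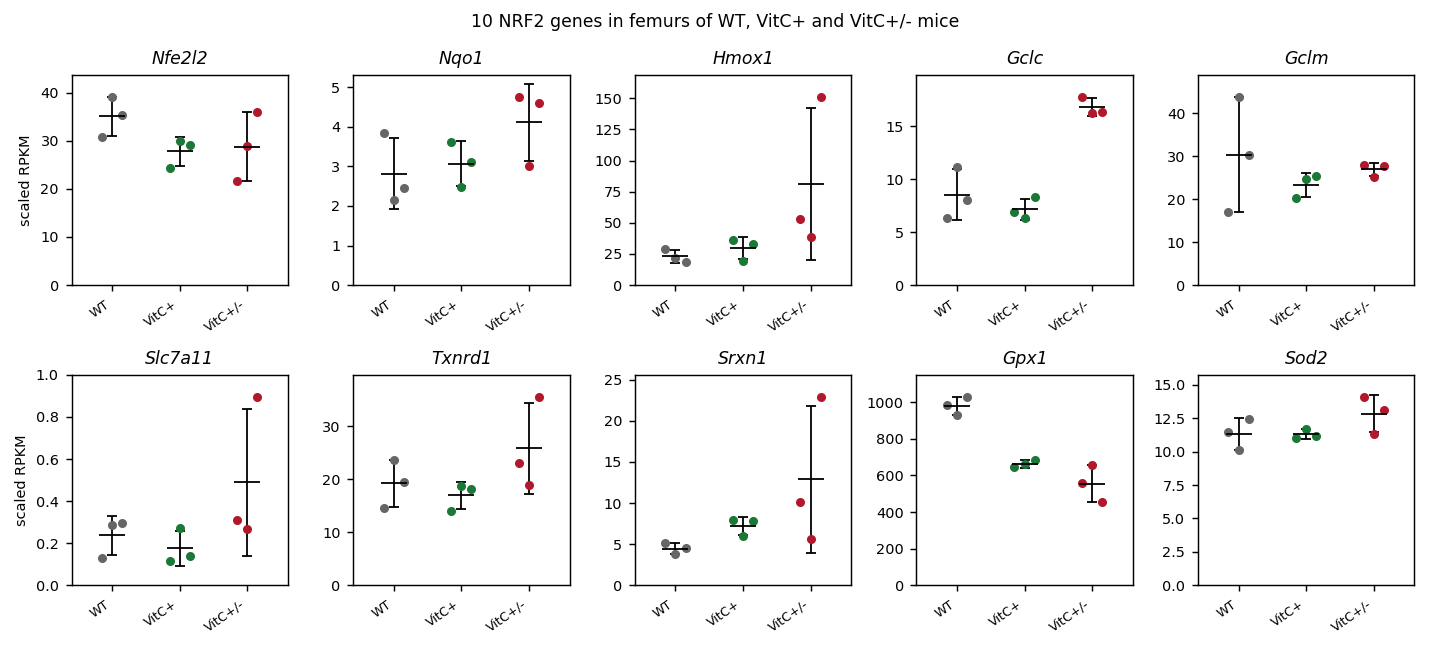
Levels of the 10 NRF2 genes in the 9 VitC femur libraries, in scaled RPKM (RPKM divided by a factor per library, linear axis from 0). Points are libraries, bars the mean and SD of 3. Gclc in VitC+/- lies between 16.2 and 17.7, above every other library, and 1 VitC+/- library is far above the rest for Hmox1, Srxn1 and Slc7a11.

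Nfe2l2 lies on chromosome 2 (mm10, 75675519 to 75704641). Levels here are scaled RPKM, that is RPKM divided by a factor per library, and fold changes are on the log2(scaled RPKM + 0.5) scale. Nfe2l2 was at 30.9, 39.1 and 35.3 in WT, 24.3, 30.1 and 29.0 in VitC+, and 21.6, 28.8 and 36.0 in VitC+/-. The VitC+/- libraries spanned the VitC+ libraries and overlapped WT. The log2 fold change against VitC+ was 0.03 ± 0.19 (SE), with an interval from -0.41 to 0.46.

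Of the 8 other genes listed for NRF2 control, 2 rose against VitC+ and none fell, beside 5.93% and 7.52% of all genes. The 2 that rose encode small MAF proteins. Maff was at 6.23, 9.81 and 8.27 in VitC+/- and 2.02 to 2.83 in VitC+ (log2 fold change 1.56 ± 0.21, adjusted p = 0.0036). Mafk was at 10.1 or more in VitC+/- and at 5.96 to 7.56 in VitC+ (0.78 ± 0.16, adjusted p = 0.0159). Neither overlapped VitC+ or WT, where 21.4% of all genes lay higher without overlap in each comparison. Mafg, another small MAF gene, chosen after its values were seen, was at 12.5, 16.6 and 14.2 in VitC+/-, 16.5 to 18.9 in VitC+ and 22.1 to 26.8 in WT. It overlapped VitC+ (log2 fold change -0.28 ± 0.14, adjusted p = 0.214) and fell against WT (-0.76 ± 0.14, adjusted p = 0.00513). Keap1 was at 10.1 to 11.2 in VitC+/- and 9.66 to 11.0 in VitC+, with a log2 fold change of 0.03 ± 0.12. Bach1 was at 9.97 to 12.7 in VitC+/- and 7.32 to 9.32 in VitC+ without overlap, as for 21.4% of all genes, but did not pass the threshold (0.43 ± 0.17, adjusted p = 0.123). In WT it was at 8.25, 11.1 and 10.6, which overlapped VitC+/-.

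The letters TGACNNNGC, the core of the antioxidant response element, were searched on both strands from 250 bases before to 50 bases after RefSeq start sites (GRCm38.p6). Of the NRF2 genes 8 were matched, all but Gclc and Hmox1, and 4 of them held the letters in 4 of their 10 promoters. They were present in 12.4% of all 32851 promoters. The 4 matches are shown because these elements define the family; capitals mark the match and 10 bases stand on either side. In order, they lie at chr2:75704885-75704913, chr2:152105542-152105570, chr3:122245413-122245441 and chr10:82859104-82859132, all printed from the minus strand. A match describes the letters only.
Nfe2l2: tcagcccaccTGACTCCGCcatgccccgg
Srxn1: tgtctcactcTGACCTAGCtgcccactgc
Gclm: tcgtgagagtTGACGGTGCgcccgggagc
Txnrd1: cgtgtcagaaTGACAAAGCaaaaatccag

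Glutathione, the main small thiol of the cell, is made from cystine that enters through the antiporter formed by Slc7a11 and Slc3a2, and GCLC with its modifier subunit GCLM carries out the limiting step. Gclc (chromosome 9, 77754535 to 77794489) was at 6.37, 11.1 and 8.04 in WT, 6.86, 6.31 and 8.28 in VitC+, and 17.7, 16.2 and 16.4 in VitC+/-. All VitC+/- libraries lay above all others, as for 21.4% of all genes against VitC+ and 21.4% against WT. The log2 fold change was 1.18 ± 0.20 against VitC+ (adjusted p = 0.00775) and 0.97 ± 0.20 against WT (adjusted p = 0.00657). Without WT replicate 3 and VitC+ replicate 1 the value against VitC+ was 1.16 but no longer passed (adjusted p = 0.0649).

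Gclm, on chromosome 3, was at 17.0, 43.8 and 30.4 in WT, 20.2, 24.6 and 25.3 in VitC+, and 27.9, 25.2 and 27.8 in VitC+/-. The groups overlapped, and the log2 fold change against VitC+ was 0.21 ± 0.28. The difference between the 2 subunits was not tested. Slc7a11 was at most 0.893 and stayed below the filter, so it was not tested; VitC+/- replicate 3 was the highest library, and the other 8 were at 0.117 to 0.309. Its partner Slc3a2, which also serves other amino acid transporters, was at 38.1, 43.2 and 45.3 in VitC+/- and 18.1 to 23.1 in VitC+ (1.02 ± 0.14, adjusted p = 0.0039).

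Of the 16 further glutathione genes, which include Slc3a2, 2 rose and 1 fell against VitC+, beside 5.93% and 7.52% of all genes. Gsto1, a glutathione transferase that can also reduce dehydroascorbate, was at 52.1 to 54.2 in VitC+/- and 23.5 to 32.0 in VitC+ (0.92 ± 0.15). Glrx, a glutaredoxin, was at 26.99 to 40.9 in VitC+/- and 53.6 to 87.4 in VitC+ (log2 fold change -1.02 ± 0.22). The median of the 16 was -0.21.

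Hmox1 (chromosome 8, 75093618 to 75100593) encodes heme oxygenase 1, which breaks heme down. It was at 29.1, 21.8 and 18.9 in WT, 36.4, 19.4 and 33.2 in VitC+, and 53.3, 38.6 and 151 in VitC+/-. Every VitC+/- library was above every other library, as for Gclc. Of all genes, 21.4% lay higher without overlap against VitC+ and 21.4% against WT. The VitC+/- libraries differed among themselves more than the other groups did from each other. The log2 fold change was 1.23 ± 0.45 against VitC+, which did not pass (adjusted p = 0.098), and 1.55 ± 0.45 against WT (adjusted p = 0.0288). Without VitC+/- replicate 3 the value against VitC+ was 0.65, and without VitC+/- replicate 2 it was 1.63 and passed (adjusted p = 0.0472).

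Nqo1 encodes a quinone reductase widely used as a readout of NRF2. It was at 3.85, 2.16 and 2.45 in WT, 3.61, 2.48 and 3.12 in VitC+, and 4.75, 3.001 and 4.61 in VitC+/-. The groups overlapped, with a log2 fold change of 0.36 ± 0.25 against VitC+ and 0.49 ± 0.25 against WT. None of the 9 other detoxification genes passed against VitC+. In VitC+/- against WT 4 rose, beside 15.3% of all genes. The median log2 fold change of the 9 was 0.75 in VitC+ against WT and 0.20 in VitC+/- against VitC+. In the iron and heme list, Fech, which inserts iron into heme, was at 42.9 to 48.6 in VitC+/- and 20.0 to 26.4 in VitC+ (0.91 ± 0.17), and Slc40a1, the iron exporter ferroportin, was lower, at 11.8 to 15.7 and 20.8 to 27.6 (log2 fold change -0.87 ± 0.23).

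Txnrd1, thioredoxin reductase 1, was at 14.7, 23.6 and 19.5 in WT, 14.1, 18.8 and 18.1 in VitC+, and 23.1, 19.0 and 35.4 in VitC+/-. The VitC+/- and VitC+ libraries did not overlap, as for 21.4% of all genes lying higher, but the log2 fold change of 0.55 ± 0.25 did not pass (adjusted p = 0.165). Srxn1, sulfiredoxin, repairs over-oxidised peroxiredoxins and was at 5.10, 3.77 and 4.52 in WT, 7.90, 6.00 and 7.82 in VitC+, and 10.1, 5.69 and 22.8 in VitC+/-. It rose against WT (1.23 ± 0.39, adjusted p = 0.0414) and overlapped VitC+. Without VitC+/- replicate 3 the value against WT was 0.72 and did not pass (adjusted p = 0.0714). The VitC+ libraries also lay above every WT library for Srxn1, as for 14.5% of all genes. That log2 fold change of 0.64 ± 0.39 did not pass (adjusted p = 0.36 by limma). Sqstm1, listed with these genes, encodes a receptor of autophagy that binds KEAP1, and was at 70.9 to 94.1 in VitC+/- and 47.8 to 56.3 in VitC+ (0.65 ± 0.15, adjusted p = 0.0229).

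Gpx1, a glutathione peroxidase and the most abundant of the 10 per length, was at 985, 928 and 1026 in WT, 643, 663 and 684 in VitC+, and 556, 657 and 453 in VitC+/-. Both Gulo-/- groups lay below WT without overlap, as 21.3% of all genes did in VitC+/- and 14.2% in VitC+. It fell by 0.83 on the log2 scale in VitC+/- against WT (SE 0.17, adjusted p = 0.00709), and without WT replicate 3 and VitC+ replicate 1 the value was -0.80 and did not pass (adjusted p = 0.0619). In VitC+ against WT the log2 fold change was -0.56 (adjusted p = 0.126), and 0% of all genes passed in that comparison by limma, although 2769 had an unadjusted p under 0.05. Sod2, the mitochondrial superoxide dismutase, was at 10.1 to 12.4 in WT, 11.0 to 11.7 in VitC+ and 11.3 to 14.05 in VitC+/-, with a log2 fold change of 0.17 ± 0.14 against VitC+. Among 16 other antioxidant enzymes only Sod3, the extracellular form, passed against VitC+, beside 13.4% of all genes in either direction. Sod3 was at 11.7, 9.93 and 34.1 in VitC+/- and 2.59 to 5.84 in VitC+ (1.96 ± 0.46, adjusted p = 0.0259).

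The NADPH that glutathione and thioredoxin reductases consume comes in part from the pentose phosphate pathway. Of 6 genes listed for NADPH supply, 3 fell against VitC+ and none rose, beside 7.52% and 5.93% of all genes. Idh1 was at 15.6 to 20.9 in VitC+/- and 29.8 to 39.4 in VitC+ (log2 fold change -0.86 ± 0.16). Pgd fell by 0.74 and Taldo1 by 0.73 on the log2 scale. Over all 65 pathway genes, 7 rose and 5 fell, beside 5.93% and 7.52% of all genes tested, and the median log2 fold change was -0.13.

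Marker genes of several cell types moved with these groups. Summed over 10 genes each, neutrophil markers were at 7143 to 24261 scaled RPKM in VitC+/-, 30109 to 47204 in VitC+ and 52949 to 75003 in WT, and osteoclast markers at 2945 to 6522, 1893 to 2595 and 794 to 867. The 7 erythroid markers found were at 285 to 396, 155 to 235 and 151 to 228. Osteoblast and osteocyte markers were at 695 to 4491 in VitC+/-, 5568 to 10896 in VitC+ and 1053 to 3982 in WT. Against VitC+ 4 of 10 fell, beside 7.52% of all genes. B-cell precursor markers were at 14.5 to 27.3, 83.0 to 164 and 53.3 to 178, and 9 of 10 fell. These sums were lower in VitC+/- than in every VitC+ library. So were those of macrophage markers (767 to 918, 1468 to 1721 and 1954 to 2729), chondrocyte markers (41.5 to 54.0, 281 to 802 and 63.0 to 173) and the 9 megakaryocyte markers found (143 to 192, 254 to 699 and 222 to 656). The largest term of the macrophage sum was Lyz2, at 373 to 522 in VitC+/- and 1147 to 1458 in VitC+. The 10 macrophage markers did not fall as a list. Their median log2 fold change against VitC+ was 0.04, with 5 above 0. As higher 1 passed and as lower 2, beside 5.93% and 7.52% of all genes. VitC+/- replicate 2 stood apart in adipocyte markers, at 3225 against at most 422 elsewhere. None of the neutrophil, osteoclast or erythroid markers was at 0 in any of these libraries. Their part in the results above was not tested, and in whole bone fewer cells of a type and less RNA per cell cannot be told apart.

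**Figure D2:**
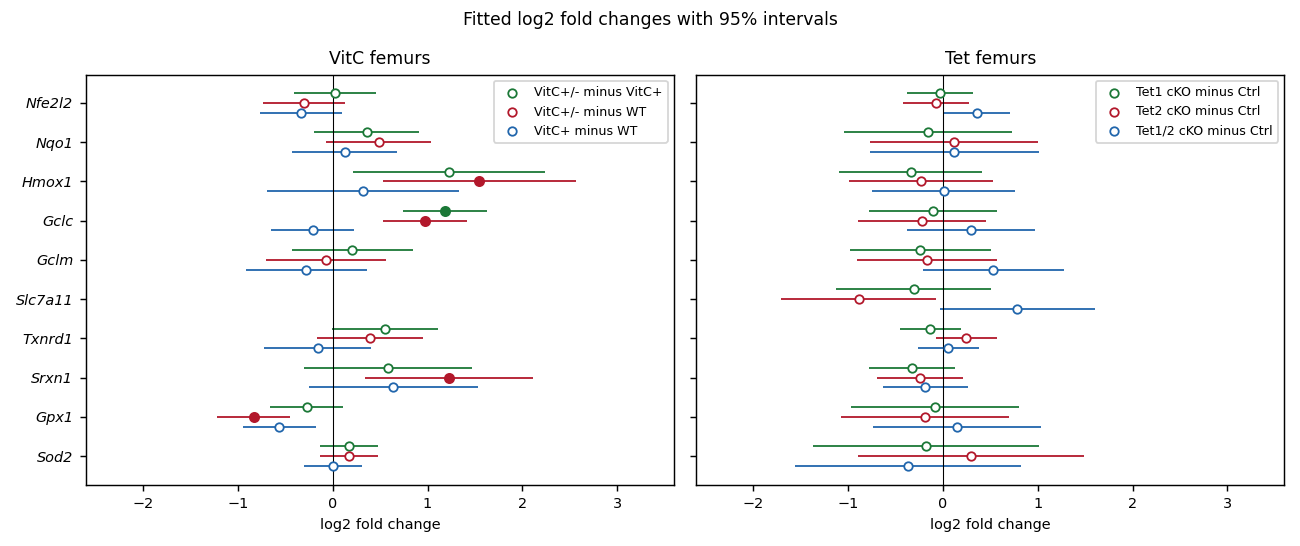
Fitted log2 fold changes of the NRF2 genes with 95% intervals (limma), VitC femurs on the left and Tet femurs on the right. Filled circles passed the threshold, open circles did not. The filled circles are Gclc against VitC+, and Hmox1, Gclc, Srxn1 and Gpx1 against WT. Slc7a11 was not tested in the VitC femurs.

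The 3 genes whose levels were most like those of Gclc over the 9 libraries were Anapc7, a subunit of the anaphase-promoting complex (Pearson r = 0.983), Lpin2, a phosphatidate phosphatase (r = 0.982), and Taf5l (r = 0.981). The points share libraries and group means, so r is a description. Anapc7, for example, was at 15.3 to 16.1 in VitC+/- and 9.87 to 12.1 in the other libraries.

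None of the 10 genes passed the threshold in Tet1 cKO, Tet2 cKO or Tet1/2 cKO against Ctrl (limma). Of 16780 genes tested, 0.0119% passed in Tet1 cKO, 0.0119% in Tet2 cKO and 0% in Tet1/2 cKO, and 382, 368 and 847 had an unadjusted p under 0.05. edgeR and DESeq2 on the recovered reads passed none of the 10 either. The median log2 fold change of the 10 was -0.16, -0.18 and 0.14. The 3 comparisons share the Ctrl libraries. Summed osteoblast and osteocyte markers were at 311628 to 694788 normalized counts in Tet1/2 cKO and 1006750 to 1299750 in Ctrl, without overlap. Also lower without overlap were the sums of chondrocyte markers (12873.5 to 23620 and 26771 to 63536), adipocyte markers (9024 to 16794 and 17992 to 28657) and endothelial markers (9984 to 16198 and 18697 to 22711). Of all genes, 10% lay lower without overlap. All 10 neutrophil markers had a log2 fold change above 0 in Tet1/2 cKO. No marker of these lists passed. Their part in the values below was not tested.

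Gclc was at 5684, 3896 and 4054 normalized counts in Ctrl, 3144, 5379 and 4266 in Tet1 cKO, 2524, 5388 and 4196 in Tet2 cKO and 4115, 6299 and 6458 in Tet1/2 cKO. All groups overlapped. The log2 fold change in Tet1/2 cKO was 0.30, with an interval from -0.37 to 0.97. For Hmox1 it was 0.01, from -0.75 to 0.77.

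Slc7a11 was above the filter here, at 243, 470 and 234 in Ctrl, 240, 258 and 227 in Tet1 cKO, 106, 184 and 214 in Tet2 cKO and 344, 623 and 640 in Tet1/2 cKO. The Tet2 cKO libraries lay below Ctrl, as for 3.43% of all genes, and the Tet1/2 cKO libraries overlapped Ctrl. The log2 fold change was -0.89 ± 0.37 in Tet2 cKO and 0.79 ± 0.37 in Tet1/2 cKO, and neither passed. Nfe2l2 was at 5518 to 8072 in Tet1/2 cKO and 4886 to 5746 in Ctrl (0.36 ± 0.16, adjusted p = 0.723). Txnrd1 was at 2976 to 3337 in Tet1 cKO and 3413 to 3592 in Ctrl, without overlap as for 3.54% of all genes lying lower, and did not pass (log2 fold change -0.13 ± 0.15). Intervals were widest for Sod2, from -1.55 to 0.82 in Tet1/2 cKO.

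**Figure D3:**
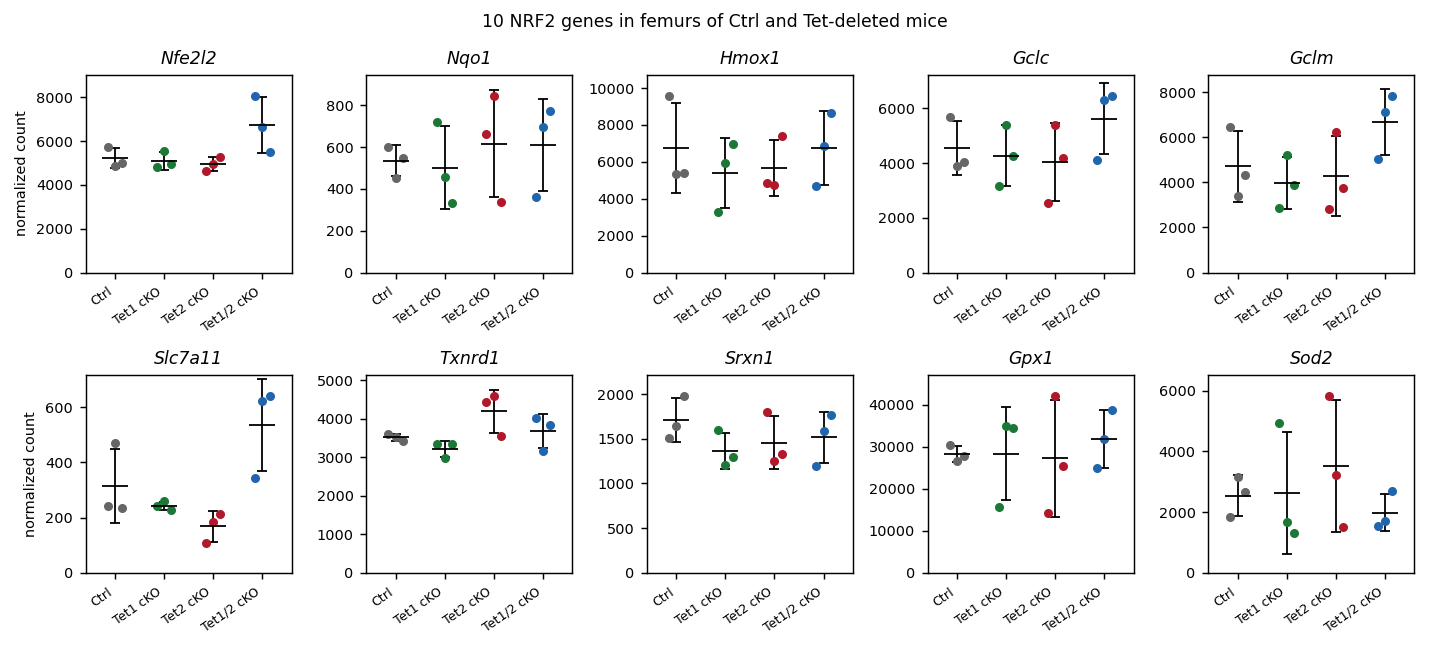
Levels of the 10 NRF2 genes in the 12 Tet femur libraries, in normalized counts (linear axis from 0). Points are libraries, bars the mean and SD of 3. The groups overlap for most genes; Slc7a11 lies below Ctrl in all Tet2 cKO libraries and Txnrd1 lies below Ctrl in all Tet1 cKO libraries.

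5hmC was mapped by antibody capture of DNA, with 1 peak list per group called on pooled samples, so peak numbers have no replicate check. Within 30 kb of the 10 start sites there were 108 peaks in VitC+ and 87 in VitC+/-. The number was lower in VitC+/- for 6 genes, equal for 4 and higher for none, whereas over 19709 genes it was lower for 44.3% and higher for 38.5%. The covered length was 49600 and 40779 bases. The median log2 ratio of covered length was -0.20 for the 10 genes and -0.10 for all genes. A VitC+/- peak was met by 66.7% of those in VitC+, and a VitC+ peak by 85.1% of those in VitC+/-. These shares were not worked out over all genes, so they do not set the 10 genes apart.

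At Gclc there were 8 peaks in VitC+ and 7 in VitC+/-. The strongest Gclc peak of the VitC+ list lay in an intron of the gene, 1247 bases downstream of the start site, with a fold enrichment of 11.5, and the VitC+/- list held a peak at the same place with 6.51. The strongest of the VitC+/- list lay in an intron of Gm47795, at -22865 bases from the start site with 10.7, where the VitC+ list had 5.67. In Ctrl the strongest lay at 14116 bases, with 6.65. Transcript levels of Gclc were higher in VitC+/-. The 300 central bases of the intronic peak are shown because it is the strongest site in the VitC+ list of the only NRF2 gene that passed against VitC+. They lie at chr9:77755633-77755932 (GRCm38.p6, plus strand), wholly in the intron, and capitals mark its 4 CG pairs, the usual place of 5hmC.
Gclc intron: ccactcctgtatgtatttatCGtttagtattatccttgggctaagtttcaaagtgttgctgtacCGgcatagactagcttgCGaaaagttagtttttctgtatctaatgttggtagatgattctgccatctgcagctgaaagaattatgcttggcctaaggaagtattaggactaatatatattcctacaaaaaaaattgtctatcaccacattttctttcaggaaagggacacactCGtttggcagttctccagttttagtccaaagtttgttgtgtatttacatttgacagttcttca

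Near Nqo1 the lists counted 9 in VitC+ but 2 in VitC+/-, and near Hmox1 7 but 4. In the Tet femurs there were 98 peaks near the 10 genes in Ctrl and 59 in Tet1/2 cKO. The number was lower in Tet1/2 cKO for 8 genes and higher for 1, Nfe2l2, with 9 and 13. Over all genes it was lower for 78.6% and higher for 3.92%. The Nfe2l2 peaks covered 30525 bases in Ctrl and 25226 in Tet1/2 cKO, so more peaks did not mean more covered length. The covered length was lower for all 10 genes and for 85.6% of all genes, with a median log2 ratio of -0.88 beside -0.96 over all genes. At the Gclc intron the fold enrichment was 6.25 in Ctrl and 5.40 in Tet1/2 cKO, with a −log10 q of 33.0 and 9.47. The median fold enrichment over all autosomal peaks was 3.45 in Ctrl and 4.02 in Tet1/2 cKO, so the lists differ in scale.

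**Figure D4:**
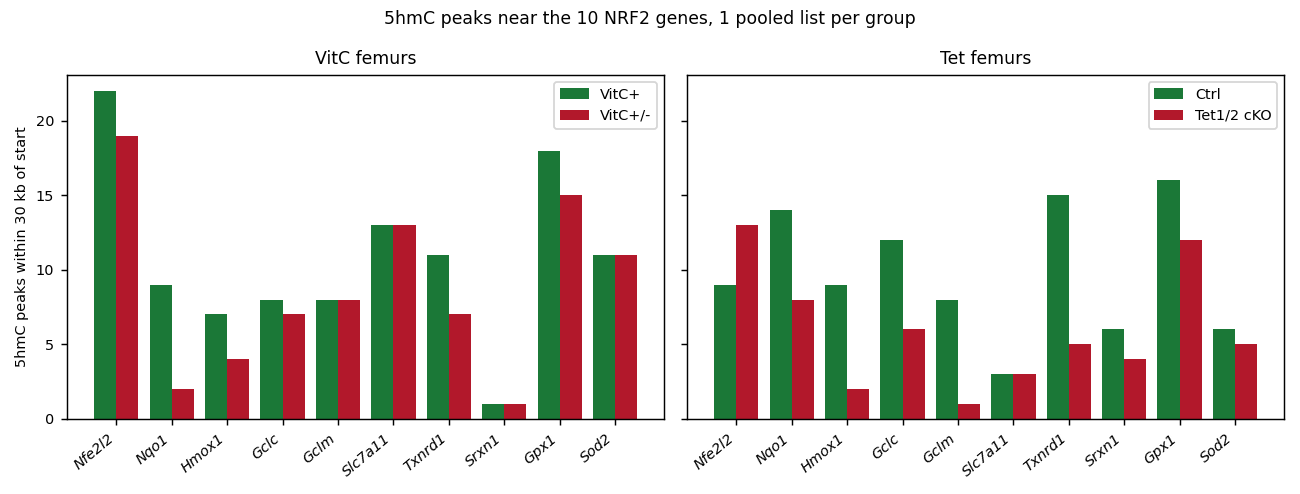
Number of 5hmC peaks whose midpoint lies within 30 kb of the start site of each NRF2 gene, in the pooled lists of VitC+ and VitC+/- femurs (left) and Ctrl and Tet1/2 cKO femurs (right). Bars start at 0 and have no error, since each group has 1 list. Nqo1 shows the largest drop in the VitC femurs, from 9 to 2.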

How the data were processed

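Per the labels and the methods of the study, libraries were made with a kit that does not mark strand and reads were aligned to mm10 with STAR. The authors deposited RPKM per library for the VitC femurs and, for the Tet femurs, a signal per gene, namely read counts scaled by DESeq2 (normalized counts). They called 5hmC peaks with MACS2 on pooled samples, and the deposited lists give a fold enrichment and a −log10 q per peak. Each RPKM library was rescaled here by the median ratio of its genes to their geometric mean, and a gene was tested where 3 or more libraries reached 1 RPKM, or 10 normalized counts in the Tet femurs. Both were tested on the log2 scale with pseudocounts of 0.5 and 1 by limma 3.58.1 with a mean-variance trend, over all 9 or all 12 libraries. The threshold was a Benjamini-Hochberg adjusted p of 0.05 over all genes tested. Tet values were whole multiples of 1 read for 100% of values (tolerance 0.1), a weak check in Tet1 cKO replicate 3, where 1 read is worth close to 1, and edgeR and DESeq2 were run on the recovered reads as alternatives. Intervals are 95%. The methods of the study call the 3 femur libraries of a group biological replicates. Exact permutation of 3 against 3 libraries cannot go below 0.1. The scripts were tested on simulated data. The 10 genes, the pathway and the marker lists were chosen with earlier results of these data known. Named were the 10 genes, Keap1, Bach1, up to 3 genes a list that passed against VitC+, and the 3 genes most like Gclc. Mafg and Aox1 fall outside this rule. Genes without a listed name were matched through RefSeq synonyms.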

Additional observations from a re-analysis of the deposited data

How the results depend on the processing

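The number of NRF2 genes past the threshold depended on the libraries used. Leaving out 1 library at a time gave 1 to 2 in VitC+/- against VitC+ (Gclc each time, with Hmox1 added without VitC+/- replicate 2) and 2 to 4 against WT (main value 4). It was 2 without VitC+/- replicate 1, WT replicate 2 or WT replicate 3. Against WT it was also 2 with no filter and with only the 2 groups compared. Without both WT replicate 3 and VitC+ replicate 1, an alternative chosen after seeing the data, it was 0 against VitC+ and 1 against WT (Gclc, adjusted p = 0.0499 by limma). Each of these fits has fewer samples or more genes tested. No NRF2 gene passed in VitC+ against WT or in any Tet comparison or the Tet1 by Tet2 interaction under any alternative run.

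Replicate numbers are shared between groups, but the labels do not say that they pair libraries. Same-numbered deviations correlated between -0.490 and 0.464. Whether same-numbered libraries share more than the number was not tested. With the number as a replicate block the counts of NRF2 genes stayed at 1, 4 and 0 in the VitC comparisons and 0 in the Tet comparisons and the interaction, while the calls over all genes in VitC+ against WT went from 0 to 774.

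Using RPKM as deposited moved the median of all genes in VitC+/- against VitC+ from 0.02 to 0.13 and the share of higher calls from 44.1% to 54.0%. DESeq2 passed 25, 13 and 10 genes in Tet1 cKO, Tet2 cKO and Tet1/2 cKO, where limma passed 2, 2 and 0. The 5hmC share in Tet1/2 cKO, 37.6% of the peaks of both lists, was 29.8% for peaks with a −log10 q of at least 5 and 26.8% within 10 kb.

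Genes that did not pass changed sign where their values were small. On the log2 scale Sod2 in VitC+ against WT was -0.075 as deposited. In Tet1 cKO, Sod2 was 0.018 by edgeR and 0.050 by DESeq2 and Gpx1 0.0066 by DESeq2. In Tet1/2 cKO, Hmox1 was -0.020 by edgeR and -0.0032 by DESeq2. Leaving libraries out, the ranges that crossed 0 were, in VitC+/- against VitC+, Nfe2l2 -0.15 to 0.22. In VitC+/- against WT, Gclm -0.43 to 0.24. In VitC+ against WT, Sod2 -0.074 to 0.088, Nqo1 -0.048 to 0.34, Gclm -0.64 to 0.032. In Tet1 cKO against Ctrl, Nfe2l2 -0.094 to 0.041, Gclc -0.29 to 0.097, Gpx1 -0.28 to 0.30, Sod2 -0.76 to 0.21, Nqo1 -0.45 to 0.11, Gclm -0.45 to 0.016, Slc7a11 -0.48 to 0.019. In Tet2 cKO against Ctrl, Gclc -0.46 to 0.087, Gclm -0.48 to 0.093, Gpx1 -0.57 to 0.21, Sod2 -0.17 to 0.81, Nqo1 -0.16 to 0.50, Hmox1 -0.44 to 0.050. In Tet1/2 cKO against Ctrl, Txnrd1 -0.0087 to 0.16, Nqo1 -0.086 to 0.46, Hmox1 -0.19 to 0.29, Gpx1 -0.0043 to 0.31. The cause was not tested.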

Other observations

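In MC3T3-E1 cells, a mouse calvarial pre-osteoblast line, there were 85 5hmC peaks within 30 kb of the 10 NRF2 starts with VitC and 56 without it, in 1 pooled list each. The number was lower without VitC for 7 genes and higher for 2, and over all genes it was lower for 55.5% and higher for 39.1%. These cells were cultured for longer than those of the histone lists that follow, so the marks come from different times. The broad H3K27me3 lists held 36 peaks with VitC and 30 without. The number was lower without VitC for 4 genes and higher for 2, beside 30.8% and 22.7% of all genes. The covered length was 61936 bases with VitC and 98951 without, longer without it for 6 genes and shorter for none, beside 53.2% and 9.32% of all genes. The H3K9me3 lists held 7 and 13 peaks over 9241 and 14278 bases, more without VitC for 5 genes and fewer for none, beside 31.2% and 10.6% of all genes.

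Against WT, the NADPH supply genes were lower in VitC+/- for 5 of 6, with a median log2 fold change of -1.30. In VitC+ against WT the median of these genes was -0.70, with 1 of 6 above 0, and none passed. Of 16 glutathione genes, 4 were higher and 4 lower. Of all genes, 15.3% were higher and 15.9% lower. Among the detoxification genes Aox1, an aldehyde oxidase, was at 2.64 ± 0.69 scaled RPKM in VitC+/- and 0.317 ± 0.077 in WT (SD, n = 3). In VitC+ Aox1 was already at 0.92 to 1.80, and it did not pass against VitC+. All WT libraries lay below 1 RPKM for this gene.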
